A study of Homo sapiens with 12 samples.

Results

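The 6 genes described here, SNAR-D, RMRP, RPPH1, VTRNA1-1, VTRNA1-2 and VTRNA1-3, encode short noncoding RNAs made by RNA polymerase III. They were found by gene symbol in the probe annotation of the arrays, which gave each of them 1 probe set, 6 of 53617 probe sets in all and 6 of 14884 named genes. They were picked on the log2 differences seen between the groups of these same arrays, so those differences are given here as a description, with no test. RNA was measured on 12 arrays in A431 and HSC-1, both labelled as skin squamous cell carcinoma lines, after 72 h with the solvent DMSO or with 100 nM everolimus, an inhibitor of mTOR complex 1 derived from rapamycin. Each line was thus measured with DMSO and with everolimus, on 3 arrays in each of these 4 groups, and the labels do not say whether these came from separate cultures. The spread between arrays may therefore be technical. The labels do not tie the serum level of the medium to a line.

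RNA polymerase III makes transfer RNAs, the smallest ribosomal RNA and a set of other short RNAs that work inside RNA-protein particles. Active mTOR complex 1 is known to favour this transcription, in part by keeping the repressor MAF1 phosphorylated. RMRP and RPPH1 are the RNA components of RNase MRP, which takes part in ribosomal RNA processing, and of RNase P, which trims the leader of transfer RNA precursors. The vault RNAs bind the large cytoplasmic vault particle. The snaR RNAs are a family of near-identical copies, many of them in gene clusters.

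All values are levels on the log2 scale after RMA, the authors' normalisation, so a difference of 1 is a factor of 2. RMA adjusts the arrays towards a shared distribution of values, so a change in the total RNA of a cell may not show. In cultures measured in bulk, fewer cells that make an RNA and less RNA per cell cannot be told apart either. A probe set does not separate a mature short RNA from a precursor or a longer transcript over the same bases. A level is not read as an amount relative to other genes. The 5 epithelial markers with a named probe set (KRT5, KRT14, SFN, DSG3 and EPCAM, the last not particular to keratinocytes) lay above the array median on 12 of 12 arrays. Named markers of fibroblasts, endothelium and melanocytes (DCN, PECAM1, VWF, MLANA, PMEL and TYR) lay above it on 0 arrays, except PMEL on 1, and the monocyte marker CD14 lay above it on 5. Over all probe sets, correlations were 0.989 to 0.992 within a group and 0.955 to 0.962 across lines. Tests were limited to genes above the array median on 3 or more of the 12 arrays, which kept 10613 genes and all 6 members.

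The regions around the start sites of 3 members are shown because RNA polymerase III reads short motifs there. No promoter window of a member itself was at hand, so the RefSeq windows (build GRCh38.p14) of adjoining genes that reach these starts were searched for the octamer ATGCAAAT, the TATA motif TATAA and the A box consensus of internal promoters, on both strands. Capitals mark the motifs, and each window is given on the plus strand, in the direction of the named neighbour. PARP2 and CCDC107 are known to be transcribed away from RPPH1 and RMRP. LOC105378198 starts at the same base as VTRNA1-1.
Upstream region of RPPH1, window of PARP2, chr14:20343385-20343684: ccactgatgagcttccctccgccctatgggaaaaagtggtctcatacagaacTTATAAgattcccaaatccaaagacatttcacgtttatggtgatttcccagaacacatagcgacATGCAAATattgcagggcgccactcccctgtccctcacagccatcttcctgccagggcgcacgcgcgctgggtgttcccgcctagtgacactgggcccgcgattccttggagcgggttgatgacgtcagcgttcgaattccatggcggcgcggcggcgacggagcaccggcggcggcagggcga
Upstream region of RMRP, window of CCDC107, chr9:35658042-35658341: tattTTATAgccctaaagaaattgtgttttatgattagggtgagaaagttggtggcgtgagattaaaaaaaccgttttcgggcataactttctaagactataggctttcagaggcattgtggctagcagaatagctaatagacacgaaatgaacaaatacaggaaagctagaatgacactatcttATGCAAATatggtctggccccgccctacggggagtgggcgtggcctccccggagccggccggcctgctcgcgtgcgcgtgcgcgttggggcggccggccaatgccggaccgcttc
Start region of VTRNA1-1, window of LOC105378198, chr5:140711026-140711325: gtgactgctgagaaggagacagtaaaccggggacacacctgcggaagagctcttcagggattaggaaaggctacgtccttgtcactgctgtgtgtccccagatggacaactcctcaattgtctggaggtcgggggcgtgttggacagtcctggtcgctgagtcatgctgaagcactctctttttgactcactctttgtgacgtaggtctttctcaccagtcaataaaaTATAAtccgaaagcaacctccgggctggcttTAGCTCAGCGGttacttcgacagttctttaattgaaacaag
The first window holds the first 27 bases of RPPH1 at its left end, the second holds 0 bases of RMRP, and the third holds the first 50 bases of VTRNA1-1 at its right end. The nearest TATA motif lay 26 bases upstream of RPPH1, where the motif on both strands overlaps, 27 bases upstream of RMRP and 18 bases upstream of VTRNA1-1. The octamer lay 90 bases upstream of RPPH1 and 208 bases upstream of RMRP. The A box began 9 bases after the first base of VTRNA1-1. Of 35116 windows of this length, 20.4% held the TATA motif, 1.77% the octamer and 4.72% the A box. These matches are a description of the letters only.

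SNAR-D was lower with everolimus in HSC-1 and differed little in A431. In HSC-1 its level (probe set 16874512) was 8.64, 8.32 and 8.45 on the DMSO arrays and 6.91, 7.24 and 7.71 on the everolimus arrays. All 3 everolimus arrays lay below all 3 DMSO arrays, with a gap of 0.60, and replicate 3 was the least low. The log2 difference was -1.18 ± 0.14 (SE, n = 3 against 3), or 2.27-fold lower, which ranked 12 from the lowest of 10613 genes. As SNAR-D was picked on these differences, this rank is a description only. The snaR genes SNAR-B1, SNAR-H, SNAR-C1 and SNAR-G2, described below, held ranks 10, 11, 18 and 93. In A431 the level was 8.12, 8.28 and 8.37 with DMSO and 8.25, 8.43 and 8.01 with everolimus. These arrays overlapped, and the log2 difference was -0.02 ± 0.14. The effect in HSC-1 less that in A431 was -1.16 ± 0.20.

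**Figure D1:**
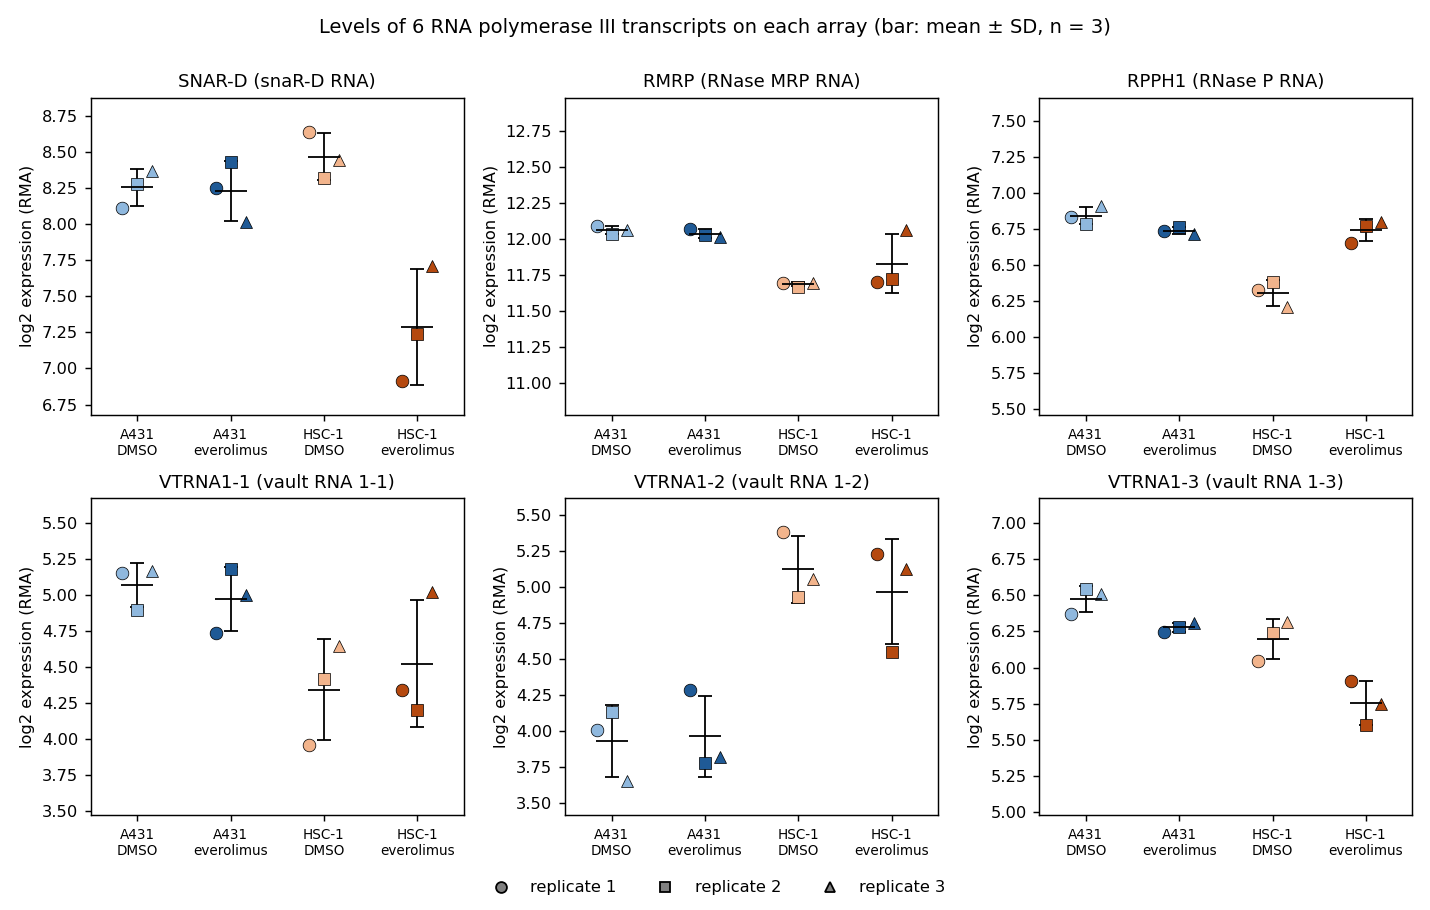
Level of each of the 6 RNAs (log2 expression after RMA, vertical axis spanning the same range in every panel) on each array of the 4 groups (horizontal axis). Symbols are arrays by replicate number and bars are the mean ± SD of 3 arrays. SNAR-D was lowest on the HSC-1 everolimus arrays, and RMRP on HSC-1 everolimus replicate 3 stood at 12.06 against 11.70 and 11.72.

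The snaR copies share most of their sequence, so their probe sets may read overlapping pools of RNA and are not taken as independent of SNAR-D. Probe sequences were not compared. The annotation named 14 snaR probe sets for 8 genes, and these held 10 different sets of values. In HSC-1, 7 of the 10 were lower with everolimus with no overlap between arrays, against 19.6% of all tested genes, and 0 were higher without overlap, against 13.7%. The 7 include SNAR-D, which was picked on these differences, and 2 sets of values each for SNAR-B1 and SNAR-C1. The shares of all tested genes count 1 probe set per gene, so the 2 are not on the same footing. The 7 differences ran from -1.24 to -0.55. SNAR-B1 (16873645) had levels of 11.15, 11.11 and 11.10 with DMSO and 9.75, 9.74 and 10.14 with everolimus, a difference of -1.24 ± 0.08. SNAR-H (16899476) had levels of 8.24, 8.50 and 8.26 against 7.08, 6.99 and 7.24, a difference of -1.23 ± 0.08. Of the 5 SNAR-C1 probe sets, 2 (16863715 and one of identical values) differed by -1.01 ± 0.08 and 3 by -0.81 ± 0.07. SNAR-G2 differed by -0.55 ± 0.11. On all 7, HSC-1 everolimus replicate 3 was the least low of its group, while that array correlated with the others of its group as closely as they did with each other over all probe sets (mean 0.990).

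SNAR-F, SNAR-G1 and SNAR-I had overlapping arrays in HSC-1, with differences of -0.11 ± 0.17, 0.21 ± 0.14 and 0.32 ± 0.15. Their group means lay between 5.35 and 6.19, against array medians of 4.34 to 4.39. In A431 all 10 differences were negative, from -0.37 to -0.02, but the 10 are not independent. On 5 of them everolimus replicate 3 was the lowest of the A431 everolimus arrays, and without that array the SNAR-D difference was 0.08. SNAR-H was the 1 of the 10 without overlap, at 8.22, 8.16 and 7.99 with DMSO and 7.66, 7.87 and 7.72 with everolimus, where 13.5% of all tested genes were lower in that way. Between the lines in DMSO, the differences ran from -0.09 to 0.45, and without overlap 0 of the 10 were lower in HSC-1, beside 32.9% of all tested genes, and 2 were higher (SNAR-G2 by 0.45 ± 0.11 and SNAR-H by 0.21 ± 0.08), beside 32.3%.

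**Figure D2:**
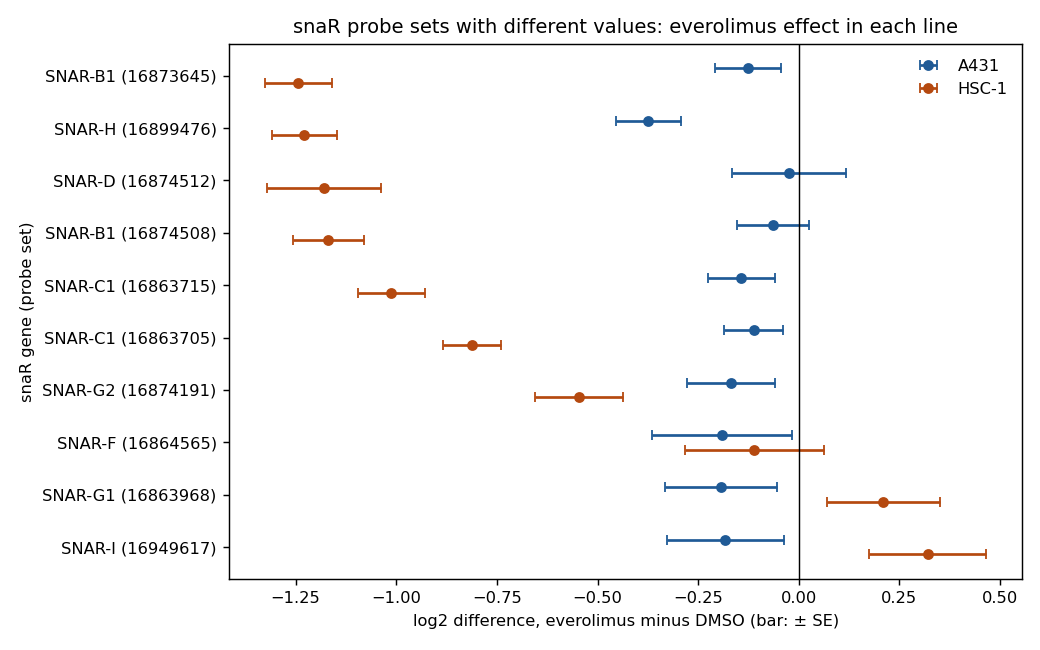
Everolimus minus DMSO log2 difference (horizontal axis, bars are ± SE) for the 10 snaR probe sets with different values (vertical axis) in A431 (blue) and HSC-1 (orange). In HSC-1, 7 lay between -1.24 and -0.55, and in A431 all 10 lay between -0.37 and -0.02.

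RPPH1, the RNase P RNA, was higher with everolimus in HSC-1. Its level (16789955) was 6.33, 6.39 and 6.21 on the DMSO arrays and 6.66, 6.78 and 6.80 on the everolimus arrays. The groups did not overlap, and the difference was 0.43 ± 0.07, or 1.35-fold higher. In A431 the level was 6.84, 6.79 and 6.91 with DMSO and 6.74, 6.77 and 6.72 with everolimus. Here the everolimus arrays were the lower ones, by a gap of 0.022, and the difference was -0.10 ± 0.07. The effect in HSC-1 less that in A431 was 0.54 ± 0.10. HSC-1 with DMSO was the lowest of the 4 groups, 0.54 ± 0.07 below A431 with DMSO, and the arrays of HSC-1 with everolimus (6.74 ± 0.08, SD) overlapped those of both A431 groups.

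RMRP, the RNase MRP RNA, had lower levels in HSC-1 than in A431, and its everolimus difference in HSC-1 rested on 1 array. In DMSO its level (17093722) was 12.09, 12.03 and 12.06 in A431 and 11.70, 11.67 and 11.69 in HSC-1, a difference of -0.37 ± 0.06. With everolimus it was 12.07, 12.03 and 12.01 in A431, overlapping the DMSO arrays (-0.02 ± 0.06). In HSC-1 it was 11.70, 11.72 and 12.06, so that replicates 1 and 2 lay at the DMSO level and replicate 3 at the A431 level. The HSC-1 difference was 0.14 ± 0.06 and 0.03 without everolimus replicate 3, and the effect in HSC-1 less that in A431 went from 0.17 ± 0.09 to 0.05. The RMRP signal was near the top of every array, above 99.7% of the probe sets. A second round of quantile normalisation gave -0.27 for the difference between the lines and -0.07 for everolimus in A431.

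The genes that share these upstream regions, PARP2 and CCDC107, were added for their position after the values were seen. PARP2, which encodes a poly(ADP-ribose) polymerase of DNA repair, fell with everolimus in HSC-1 by 0.28 ± 0.07 (limma adjusted p = 0.00611, and 0.00221 to 0.0434 over 22 alternatives), where RPPH1 was higher. Its level there was 7.17, 7.19 and 7.36 with DMSO and 6.99, 7.04 and 6.85 with everolimus, and in A431 its difference was -0.01 ± 0.07 (limma adjusted p = 0.943). PARP2 was also lower in HSC-1 than in A431 in DMSO (-0.48 ± 0.07, limma adjusted p = 4.05e-06), as was RPPH1. CCDC107, beside RMRP, was higher in HSC-1 than in A431 (0.45 ± 0.09, limma adjusted p = 0.000238), where RMRP was lower, and its everolimus difference in HSC-1 was -0.07 ± 0.09 (limma adjusted p = 0.684).

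**Figure D3:**
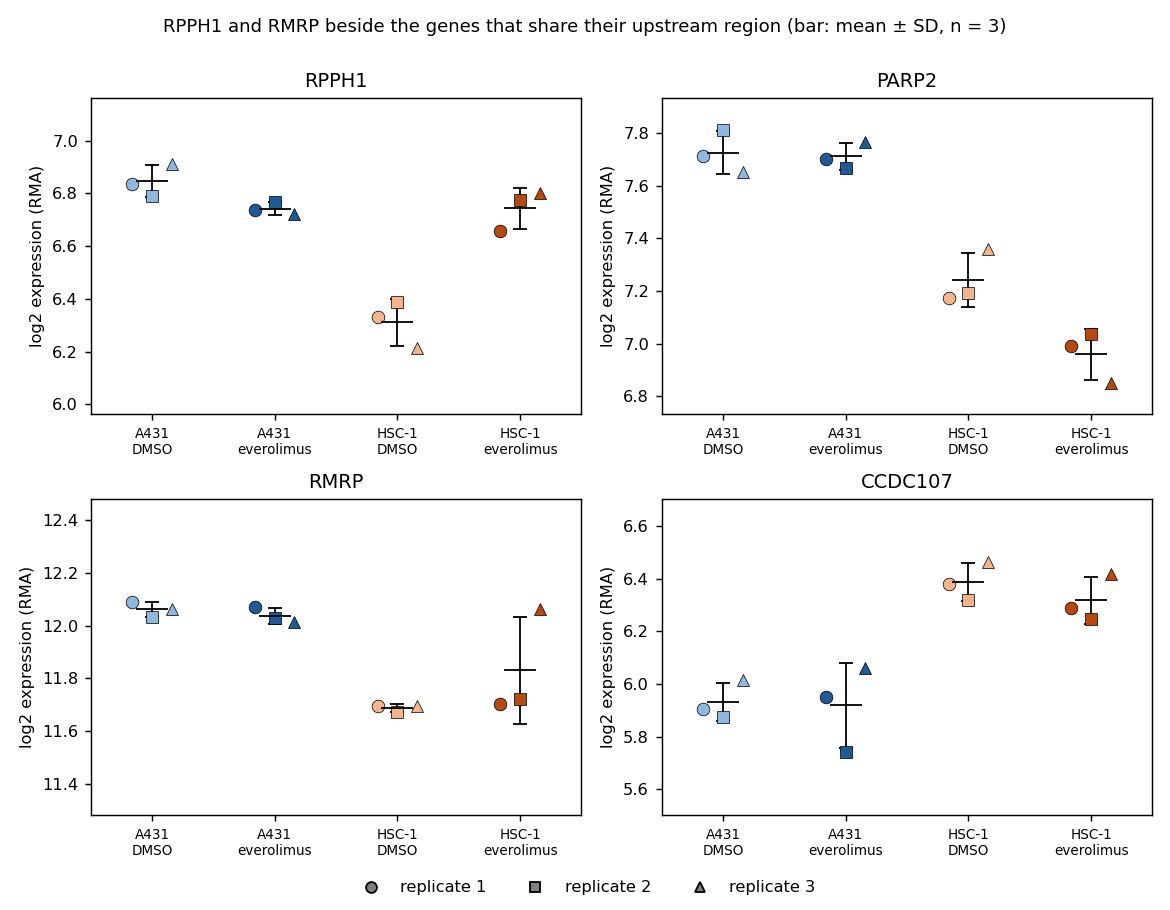
Levels (log2 expression after RMA, vertical axes of equal span) of RPPH1 and RMRP beside PARP2 and CCDC107, whose windows were searched above, on each array of the 4 groups (horizontal axis). Symbols are arrays by replicate number and bars are the mean ± SD of 3. In HSC-1, RPPH1 was 0.43 higher with everolimus and PARP2 0.28 lower.

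The 3 vault RNAs, which lie next to each other on chromosome 5, did not share a pattern. VTRNA1-3 was lower with everolimus in both lines. Its level (16990203) in HSC-1 was 6.04, 6.24 and 6.31 with DMSO and 5.91, 5.60 and 5.75 with everolimus, without overlap and with a difference of -0.45 ± 0.09, or 1.36-fold lower. In A431 it was 6.37, 6.55 and 6.51 against 6.25, 6.28 and 6.31, again without overlap, by a gap of 0.065, and the difference was -0.20 ± 0.09. The effect in HSC-1 less that in A431 was -0.25 ± 0.13, and in DMSO HSC-1 was 0.28 ± 0.09 below A431. Its 4 groups thus ran from HSC-1 with everolimus, through HSC-1 with DMSO and A431 with everolimus, whose arrays overlapped, up to A431 with DMSO.

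VTRNA1-2 separated the lines and not the treatments. Its level (16990201) in DMSO was 4.01, 4.13 and 3.65 in A431 and 5.38, 4.93 and 5.05 in HSC-1, a difference of 1.19 ± 0.19, or 2.28-fold higher. With everolimus it was 4.28, 3.78 and 3.82 in A431 and 5.23, 4.55 and 5.12 in HSC-1. The treated and untreated arrays overlapped in each line, with differences of 0.03 ± 0.19 in A431 and -0.15 ± 0.19 in HSC-1. It lay above the array median on 0 of 6 A431 arrays and on 6 of 6 HSC-1 arrays. It thus passed the level filter through HSC-1 alone, and the size of the difference depends on the background in A431.

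VTRNA1-1, which is known to bind the autophagy receptor p62, was higher in A431 than in HSC-1 with DMSO. With everolimus the arrays of the lines overlapped. Its level (16990199) in DMSO was 5.15, 4.89 and 5.16 in A431 and 3.96, 4.42 and 4.65 in HSC-1, a difference of -0.73 ± 0.20. With everolimus it was 4.74, 5.18 and 5.00 in A431 and 4.34, 4.20 and 5.02 in HSC-1, overlapping the DMSO arrays of each line. The everolimus differences were -0.10 ± 0.20 and 0.18 ± 0.20, and the second was -0.07 without HSC-1 everolimus replicate 3. On 3 of the 6 HSC-1 arrays it lay above the array median. VTRNA2-1, a related RNA at another locus of chromosome 5, lay above the median on 2 of 12 arrays and was not tested. Its level was 4.37 ± 0.26 (SD) in A431 with DMSO, 3.91 ± 0.28 with everolimus, 2.51 ± 0.13 in HSC-1 with DMSO and 2.77 ± 0.25 with everolimus.

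Counted over the 6 members, the arrays of the everolimus and DMSO groups did not overlap for 2 in A431, both lower (RPPH1 and VTRNA1-3), where 13.5% of all tested genes were lower and 11% higher in that way. In HSC-1 they did not overlap for 2 that were lower (SNAR-D and VTRNA1-3) and 2 that were higher (RPPH1 and RMRP, the latter by 0.007), beside 19.6% and 13.7%. Between the lines in DMSO, 4 members were lower in HSC-1 and 1 was higher without overlap, beside 32.9% and 32.3% of all tested genes. The higher one was VTRNA1-2, which passed the level filter through HSC-1 alone. Nothing is read from these counts, since the members were chosen with the values known.

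The protein genes of the pathway were taken from lists of 67 genes, of which 31 had a named and tested probe set. These lists were drawn up with earlier results of these data known. Their counts and adjusted p-values are therefore not those of genes picked blind to the values. For the difference between the lines' effects, 10.5% of all tested genes passed, and 5 of the 31 did. In A431, 0 of the 31 rose and 1 fell at a limma adjusted p under 0.05, where 2.39% of all tested genes rose and 4.33% fell. In HSC-1, 1 rose and 6 fell, where 7.34% and 11.3% of all genes did. Of 8 tested subunits of RNA polymerase III, 1 fell in HSC-1 and 0 changed in A431. This was POLR3B, the second-largest subunit, with a difference of -0.37 ± 0.07 in HSC-1 (limma adjusted p = 0.000737) and 0.13 ± 0.07 in A431 (0.297). The median difference of the 8 was -0.14 in HSC-1 and 0.0046 in A431, beside -0.02 and -0.0038 over all tested genes. POLR3G, the subunit that alternates with POLR3GL, had the smallest p of the list in A431 (0.29 ± 0.11, limma adjusted p = 0.122, and 0.045 in 1 of 22 alternatives).

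Of a list of 20 factors of RNA polymerase III transcription, among them the RNA-binding protein SSB, 5 were tested. In HSC-1, 1 rose with everolimus and 0 fell, beside 7.34% and 11.3% of all tested genes. In A431, 0 changed, where 2.39% of all tested genes rose and 4.33% fell. GTF3A, which binds the gene of the smallest ribosomal RNA, rose in HSC-1 by 0.34 ± 0.09 (limma adjusted p = 0.0159). That call was lost without HSC-1 DMSO replicate 3 (0.0717), HSC-1 everolimus replicate 1 (0.0636) or 2 (0.0624), and without the intensity trend (0.0524). In A431 its difference was 0.21 ± 0.09 (limma adjusted p = 0.229). The mRNA of the repressor MAF1 differed by -0.14 ± 0.08 in A431 (limma adjusted p = 0.344) and -0.03 ± 0.08 in HSC-1 (0.867), and the arrays say nothing of its phosphorylation. SSB, the La protein that binds the end of new RNA polymerase III transcripts, differed by -0.0039 ± 0.07 and -0.08 ± 0.07 (limma adjusted p = 0.984 and 0.483).

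Of 7 tested proteins of RNase P and RNase MRP, 2 fell in HSC-1 and 0 rose, beside 11.3% and 7.34% of all tested genes. In A431, 0 changed, where 4.33% of all tested genes fell and 2.39% rose. The medians of the 7 were -0.23 in HSC-1 and 0.02 in A431, beside -0.02 and -0.0038 over all tested genes. RPP21 fell in HSC-1 by 0.23 ± 0.06 (limma adjusted p = 0.00705). RPP14 fell by 0.31 ± 0.10 (limma adjusted p = 0.0433), a call lost in 11 of 22 alternatives, at up to 0.235 without HSC-1 DMSO replicate 3 and 0.198 without HSC-1 everolimus replicate 3. It was also lost without A431 DMSO replicate 1 (0.052), 2 (0.0528) or 3 (0.0512), and, at the threshold, without A431 everolimus replicate 2. RPPH1, the RNA of RNase P, was higher with everolimus than with DMSO in HSC-1. Of the 2 tested proteins tied to vault RNAs, MVP, the major vault protein, fell in A431 by 0.39 ± 0.07 (limma adjusted p = 0.000983) and differed by 0.06 ± 0.07 in HSC-1 (0.611). SRSF2, a splicing factor that takes part in vault RNA processing, differed by -0.14 ± 0.05 in HSC-1 (limma adjusted p = 0.0556). Over 22 alternatives its limma adjusted p ran from 0.0303 to 0.231 and was under the threshold in 4.

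Among 9 tested proteins of the 7SK and signal recognition particles, whose RNAs are also RNA polymerase III products, 0 changed in A431. There, 4.33% of all tested genes fell and 2.39% rose. In HSC-1, 3 fell and 0 rose, beside 11.3% and 7.34% of all tested genes. SRP72 fell by 0.27 ± 0.04 (limma adjusted p = 0.000123) and SRP68 by 0.21 ± 0.05 (0.00566), both proteins of the signal recognition particle. MEPCE, which caps 7SK RNA, fell by 0.18 ± 0.06 (limma adjusted p = 0.0356). That call was lost without HSC-1 DMSO replicate 1 (0.107) or 2 (0.178), without HSC-1 everolimus replicate 1 (0.099) or 2 (0.149), with no level filter (0.054) and without the intensity trend (0.103). The probe sets of HEXIM1, which holds the elongation factor P-TEFb inactive together with 7SK RNA, disagreed. The one used for the counts (16834921) differed by 0.12 ± 0.07 in A431 and 0.18 ± 0.07 in HSC-1 (limma adjusted p = 0.414 and 0.115). The other (16845850), left out of the test for its lower mean, differed by -0.34 ± 0.10 in A431 and 0.73 ± 0.10 in HSC-1, without overlap of the arrays in either line. It was chosen for mention after its values were seen. TERC, the telomerase RNA, was the 1 tested RNA of a list of 21 short RNAs made by RNA polymerase II. It differed by 0.14 ± 0.07 in A431 (limma adjusted p = 0.24) and 0.18 ± 0.07 in HSC-1 (0.0587). Over 22 alternatives the HSC-1 value ran from 0.0103 to 0.265 and was under the threshold in 1, without everolimus replicate 2.

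**Figure D4:**
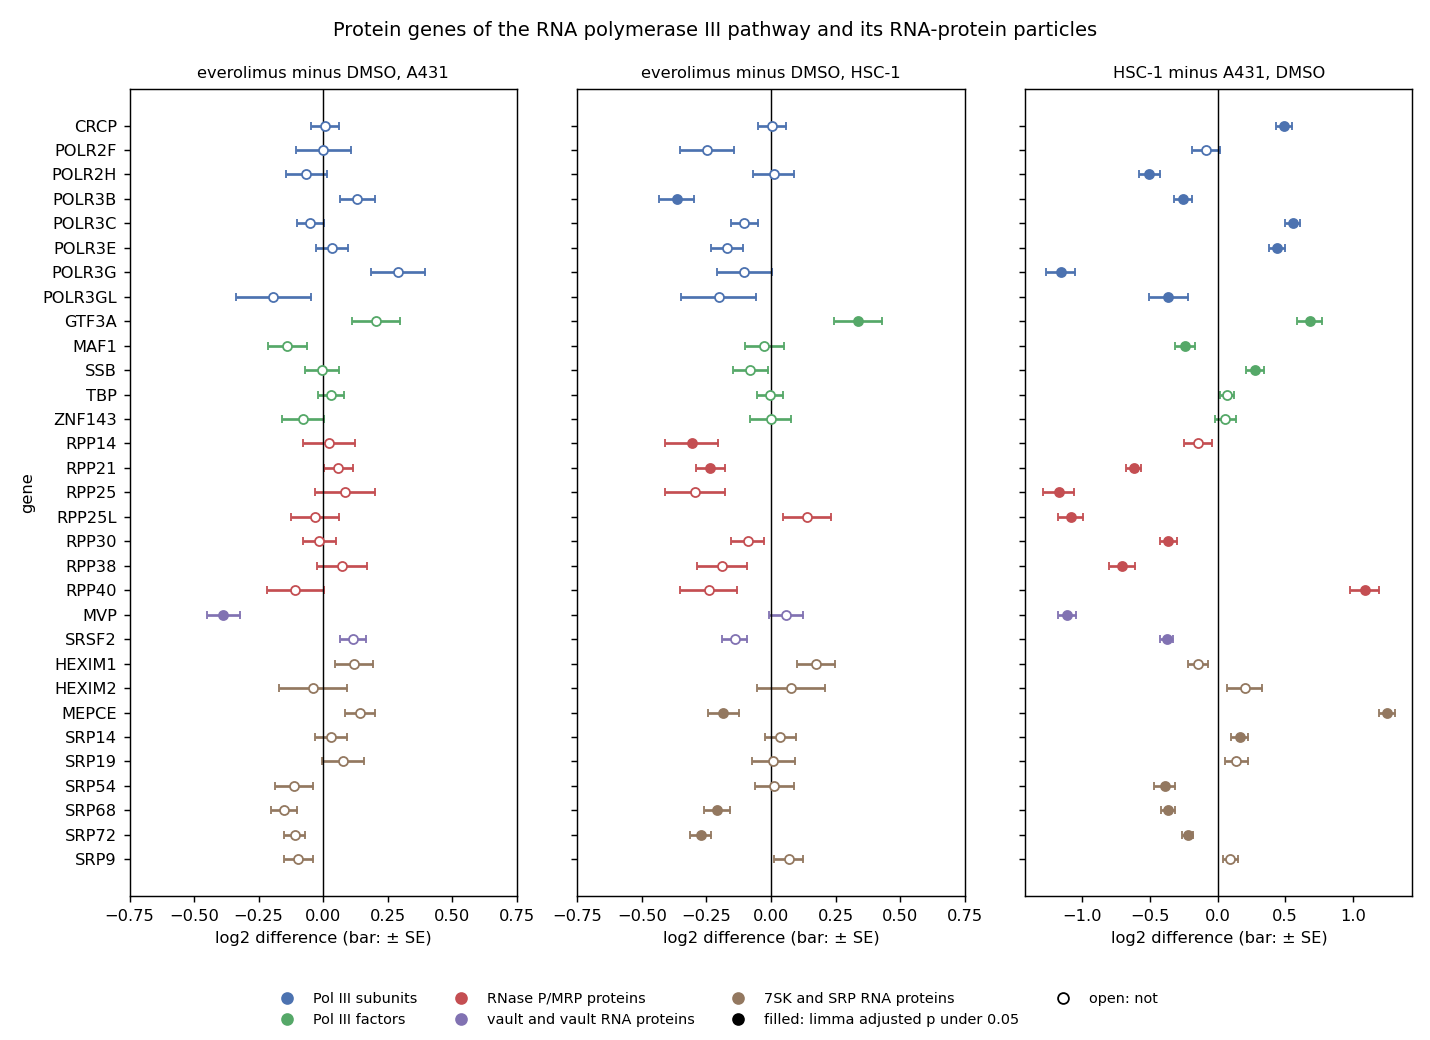
Log2 differences (horizontal axes, bars are ± SE) of the 31 tested protein genes (vertical axis, coloured by list) for everolimus in A431, everolimus in HSC-1 and HSC-1 against A431 in DMSO. Filled points have a limma adjusted p under 0.05: 1 in A431, 7 in HSC-1 and 23 between the lines.

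Between the untreated lines, 8 of the 31 protein genes were higher in HSC-1 and 15 lower, where 29.2% and 30.2% of all tested genes were. Of the 7 RNase P and RNase MRP proteins, 5 were lower in HSC-1 and 1 higher, with a median difference of -0.62. RPP25 and its paralogue RPP25L differed by -1.17 ± 0.12 and -1.09 ± 0.09, RPP38 by -0.71 ± 0.10 and RPP40 by 1.09 ± 0.11 (limma adjusted p from 6.7e-09 to 3.22e-06). The levels of RMRP and RPPH1, which were picked on such differences, were lower in HSC-1, and this is a description only. MVP differed by -1.11 ± 0.07 and SRSF2 by -0.38 ± 0.05 (limma adjusted p = 2.97e-11 and 2.12e-06). Of the 9 proteins of the 7SK and signal recognition particles, 2 were higher and 3 lower, with MEPCE at 1.25 ± 0.06 and SRP54, SRP68 and SRP72 at -0.39 ± 0.08, -0.37 ± 0.05 and -0.22 ± 0.04 (limma adjusted p from 1.14e-12 to 0.000163). Of the 8 polymerase subunits, 3 were higher, POLR3C (0.55 ± 0.05) and CRCP (0.49 ± 0.06) among them, and 4 lower, among them POLR3G (-1.16 ± 0.11) and POLR2H (-0.50 ± 0.08), at limma adjusted p from 1.76e-08 to 1.68e-05. Of the 5 factors, GTF3A (0.68 ± 0.09) and SSB (0.28 ± 0.07) were higher (limma adjusted p = 3.24e-06 and 0.00143) and 1 was lower. This was MAF1, at -0.24 ± 0.08 (limma adjusted p = 0.00986), a call lost without A431 DMSO replicate 3 (0.0592) or HSC-1 DMSO replicate 3 (0.0837).

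The tested genes with the most similar pattern were found by the root mean square difference over the 12 arrays, after each gene was centred on its own mean. For SNAR-D these were SNAR-C1 and SNAR-B1, each at 0.16, where SNAR-D itself varied by 0.50 about its mean. For RPPH1 they were C1orf116 (0.07) and SEC62 (0.09), against its own 0.21, and for RMRP TNXB (0.06) and TCEAL9 (0.07), against 0.18. VTRNA1-3 was most like BRI3BP and MRPL58 (0.09 each, against 0.28). VTRNA1-2 was most like LUARIS and SLC25A15 (0.19 each, against 0.60), and VTRNA1-1 like HSPA6 and MIR331 (0.20 each, against 0.40). No member was among the nearest genes of another.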

How the data were processed

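The 12 arrays fall into 4 groups of 3 by their sample titles. The authors deposited 1 log2 value for each probe set and array. The submitters' processing notes name RMA and Affymetrix Expression Console. Their versions and the build behind the probe sets are not stated there. Of 53617 probe sets, 16098 had 1 gene symbol, all matched by Entrez identifier to assembly GRCh38.p14, and 37519 are unnamed here. Array medians ran from 4.34 to 4.39, and the files give no detection calls. The number of arrays limits the precision. For each of 14884 genes the probe set with the highest mean was used. Genes above the array median on at least 3 arrays were tested (10613). Group means were fitted with lmFit and eBayes with an intensity trend in limma 3.58.1 under R 4.3.3, 8 residual degrees of freedom and a threshold of 0.05 on p-values adjusted by Benjamini-Hochberg across the tested genes. Errors of differences are moderated SEs. For further snaR probe sets they come from the same fit over named probe sets. The members and lists were chosen with earlier results of these data known. Named beside them are up to 4 genes per list and comparison with the largest change past the threshold, or the gene with the smallest p, and the 2 genes most like each member. The procedure was run on simulated data with independent normal noise for each gene and changes in the HSC-1 everolimus group only. That run does not show whether the calls given here are right. Alternatives were a replicate block, other level filters, variance priors, array weights, normalizations, 6 arrays alone, averaged probe sets per gene and the omission of each array in turn.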

Additional observations from a re-analysis of the deposited data

Results flagged for a closer look

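For RPPH1, every A431 everolimus array lay below the mean of its DMSO arrays and every HSC-1 everolimus array above it. The effect in HSC-1 less that in A431 was 0.54 on the log2 scale, and this difference was not tested.

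The everolimus effect differed between the lines by the test of the difference itself for 5 protein genes, where 10.5% of all tested genes passed. POLR3B had a difference of -0.50 (limma adjusted p = 0.00201), with a higher mean after everolimus on the A431 arrays and a lower one on the HSC-1 arrays. MVP had a difference of 0.45 (limma adjusted p = 0.00404), from its fall in A431. MEPCE had -0.33 (limma adjusted p = 0.0162), lost without HSC-1 DMSO replicate 2 (0.0538) and without the intensity trend (0.0713). SRSF2 had -0.26 (limma adjusted p = 0.024), lost without A431 DMSO replicate 2 (0.0737), A431 everolimus replicate 3 (0.0527), HSC-1 DMSO replicate 1 (0.0683) and without the intensity trend (0.116). RPP21 had -0.29 (limma adjusted p = 0.0247), lost in 6 of 21 alternatives, at 0.0548 to 0.0732 without A431 DMSO replicate 2, A431 everolimus replicates 1 and 2 or HSC-1 DMSO and everolimus replicate 2, and at 0.11 without the intensity trend.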

How the results depend on the processing

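Of 522 values of the members under the alternatives, 519 moved by less than the SD between arrays and 3 moved further, all of RMRP: -0.067 in A431 and -0.27 between the lines with quantile normalization applied again, and 0.051 for the difference between the lines' effects, in a range of 0.051 to 0.23 over the 12 arrays left out. The cause was not tested. The count of 519 does not measure stability, since many of these values could not move. The replicate block, the level filters, the intensity trend and the robust prior leave a member's difference as it is. So do averaged probe sets, with 1 probe set per member, the fit on 6 arrays, and omission of arrays outside the comparison. The differences of SNAR-D in A431 and of VTRNA1-1 and VTRNA1-2 in both lines, whose arrays overlapped, changed sign with 1 array left out. Among the pathway lists, other snaR genes and TERC included, the genes that rose in A431 numbered 0, and 1 in a fit on the 6 arrays of the comparison. Those that rose in HSC-1 numbered 1, but 0 without the intensity trend, 2 with averaged probe sets and 0 to 1 over the arrays left out. For the difference between the lines' effects, 1 was up, but 2 with averaged probe sets and 1 to 2 over the arrays left out, and 7 were down, but 4 without the intensity trend. The TERC difference between the lines' effects (0.04) was -0.042 with array weights and -0.020 to 0.12 over the arrays left out, and the PARP2 difference in A431 ran from -0.051 to 0.029 in the same way, turning positive without replicate 2 of the DMSO or of the everolimus arrays. Replicate numbers are shared by the groups, but same-numbered DMSO and everolimus arrays had correlations of their deviations from -0.155 to 0.0181, 1 of 6 DMSO arrays correlated best with its own number, and the numbers were not taken to pair the arrays. With the replicate block, 621 genes changed in A431 (714 without) and 1845 in HSC-1 (1977 without). The SNAR-D difference in HSC-1 stayed at -1.18, which the block cannot change, since every group holds each replicate number. In that fit 9 list genes fell in HSC-1 in place of 10, and the RPP14 call was lost (limma adjusted p = 0.0622). Signal near the array median limits VTRNA1-1 and VTRNA1-2.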

Other observations

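Some snaR probe sets held identical values on all 12 arrays. The 5 probe sets named SNAR-C1 carried 2 sets of values, shared by 3 and 2 of them, and the 3 named SNAR-B1 carried 2. The values of SNAR-B1 probe set 16873645 were also held by 2 probe sets that have no gene name here. Counts over snaR probe sets therefore repeat measurements, and the 10 different sets of values are an upper limit on those that can be told apart.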
